A study of Mus musculus with 2 samples.

Results

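The collagen genes of 2 hybrid mouse fibroblast lines were taken as every gene whose symbol has the form of a collagen chain (Col, a type number, the letter a and a chain number). Of 22711 listed genes, 44 had such a symbol. They comprised 11 fibrillar, 6 basement membrane (type IV), 9 FACIT, 6 type VI and 12 other collagen genes, where FACIT stands for fibril-associated collagens with interrupted triple helices. The rule used symbols only and no measured value, but it was chosen with earlier results of these data known.

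Collagens are secreted proteins built from 3 polypeptide chains wound into a triple helix, and they make up most of the fibrous extracellular matrix. Fibroblasts are the main source of the fibrillar types I, III and V in connective tissue. Type IV forms the sheet-like network of basement membranes, FACITs sit on the surface of fibrils, and type VI forms beaded microfilaments around cells. Most types are assembled from products of several genes, so the balance between the chains matters for which trimers can form.

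The cells were immortal mouse embryonic fibroblasts, grown on gelatin, from crosses between the strain C57BL/6N, written B6, and the strain PWK/PhJ, written PWK. In the line called B6-Xi the inactive X chromosome is the B6 copy and the strain is written PWK/PhJ X C57BL/6N; in PWK-Xi it is the PWK copy and the order is reversed. There was 1 Smart-seq2 library of polyadenylated RNA per line, and the labels name no other genotype, treatment or age and do not state whether a line is a single clone. A difference between the libraries therefore has no replicate check, and the strain of the inactive X, the direction of the cross and the individual line cannot be told apart. Values are FPKM (fragments scaled by transcript length and by library size), deposited separately for the B6 and the PWK allele. Their sum is called the total, and the B6 share is the B6 value as a percentage of it. FPKM is scaled by transcript length, but the total is a sum of allele-assigned values. The assignment step is not described and may shift the total of single genes, so ratios between genes below are ratios of deposited values only.

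The libraries had 10127 (B6-Xi) and 12907 (PWK-Xi) genes above 0, with summed FPKM of 285397 and 256196, and read depth was unknown. Of all listed genes, 3006 (13.2%) were at 0 in B6-Xi but above 0 in PWK-Xi, against 226 (0.995%) the other way. A listed 0 was thus more common in B6-Xi, and zeros of the 2 lines are not equivalent. Of 12 fibroblast markers, 10 had at least 1 FPKM in the B6-Xi line and 11 in PWK-Xi. Vim, the vimentin gene, was listed at 0 in both lines, so a 0 in these files is not read as absence. Lists of 6 epithelial, 6 endothelial and 6 osteoblast markers summed to between 0 and 1.29 FPKM in either line. A list of 4 Schwann cell markers summed to 0.263 FPKM in the B6-Xi line and 0.549 FPKM in PWK-Xi, and 6 immune markers summed to 3.27 and 7.41 FPKM, mainly from Cd68 and Cd14. Among 6 cartilage markers, Acan, Comp, Matn1 and Matn3 were at 0 in both lines, while Sox9 had 19.3 FPKM in the B6-Xi line and 3.85 FPKM in PWK-Xi.

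Collagen transcripts took almost the same portion of both libraries, 314.7 FPKM or 0.110% of all FPKM in the B6-Xi line and 283.4 FPKM or 0.111% in PWK-Xi, but their makeup differed. Fibrillar collagens supplied 70.3% of the collagen FPKM in the B6-Xi line and 65.5% in PWK-Xi. Type VI supplied 14.6% in the B6-Xi line and 2.52% in PWK-Xi, and FACITs 4.19% and 23.4%. Type VI collagens summed to 46.1 FPKM in the B6-Xi line and 7.13 FPKM in PWK-Xi, and FACITs to 13.2 and 66.3 FPKM. The basement membrane class had 20.4 and 14.1 FPKM, and the remaining collagens 13.9 and 10.3 FPKM.

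**Figure D1:**
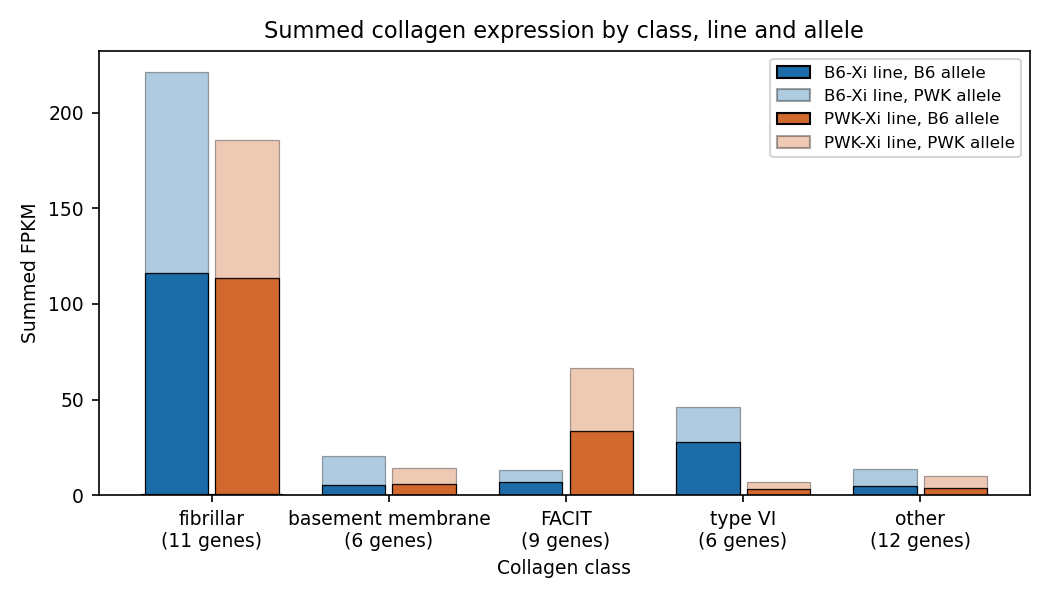
Summed FPKM (vertical axis, from 0) of the collagen genes of each class, with 1 bar per line split into the B6 allele (dark) and the PWK allele (pale). Each bar is 1 library, so there is no error bar. The type VI bar is 6.46-fold lower in PWK-Xi and the FACIT bar 5.03-fold higher.

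Of the 44 genes, 14 had at least 1 FPKM in both lines, 6 in 1 line, 14 were above 0 but under 1 FPKM, and 10 were listed at 0 in both. The last group was Col2a1, Col6a5, Col6a6, Col9a1, Col13a1, Col15a1, Col17a1, Col20a1, Col22a1 and Col28a1. It includes Col2a1 and Col9a1, which encode the main fibrillar collagen of cartilage and its FACIT partner, and Col17a1, which encodes a transmembrane collagen of epithelia. Those above 0 but under 1 FPKM were Col4a3, Col4a4, Col4a6, Col5a3, Col6a4, Col8a2, Col9a2, Col9a3, Col10a1, Col11a2, Col14a1, Col19a1, Col26a1 and Col27a1. In B6-Xi 24 collagens (54.5%) were above 0, and in PWK-Xi 31 (70.5%), against 44.6% and 56.8% of all listed genes. Listed at 0 in B6-Xi but above 0 in PWK-Xi were 10 collagens (22.7%), against 13.2% of all listed genes. The reverse held for 3 collagens (6.82%), against 0.995% of all.

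**Figure D2:**
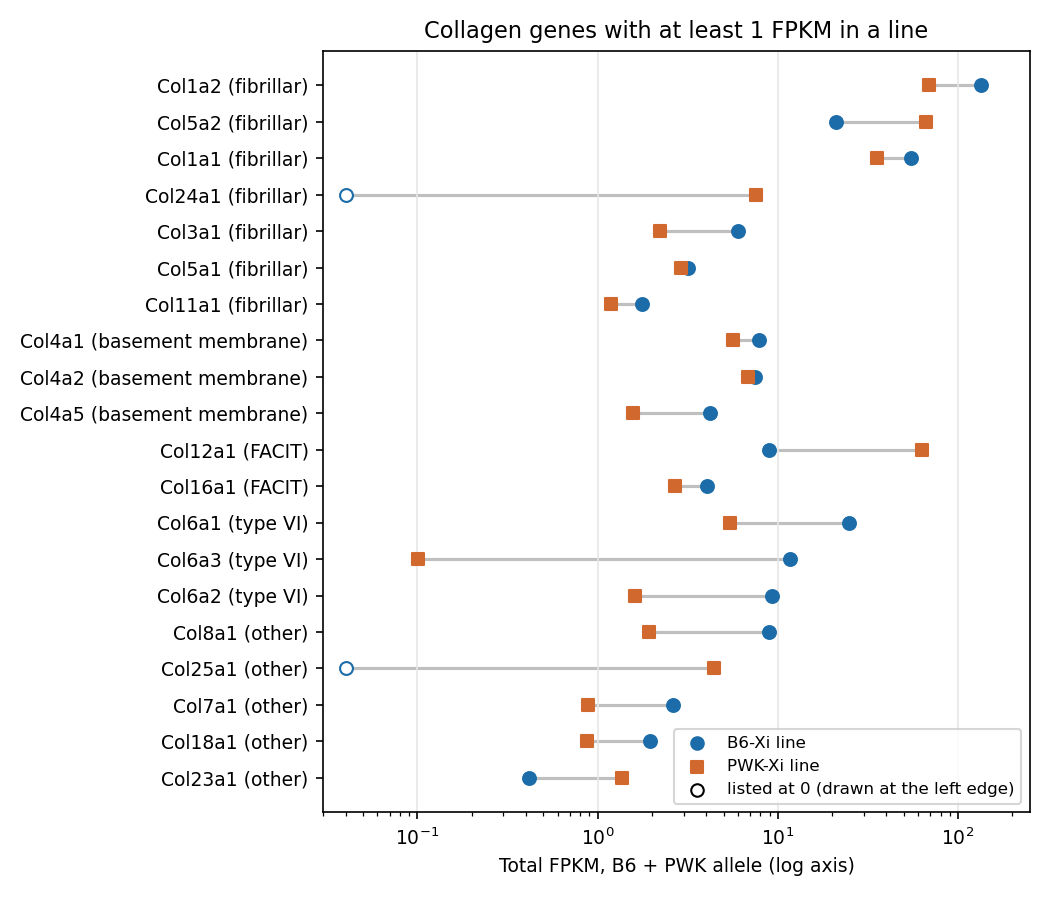
Total FPKM (log axis) of the 20 collagen genes with at least 1 FPKM in a line, 1 circle for the B6-Xi library and 1 square for the PWK-Xi library, grouped by class. Col12a1 and Col5a2 lie to the right in PWK-Xi, the 3 type VI genes lie to the left, and open symbols mark Col24a1 and Col25a1, listed at 0 in B6-Xi.

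Differences between the lines were expressed as log2((PWK-Xi + 1)/(B6-Xi + 1)) of the totals, relative to the median gene, since that median itself lay at 0.19. A gene was included if neither line listed it at 0 and its larger total reached 5 FPKM, which 11 of the 44 collagens met. Of these 11, Col12a1 and Col5a2 were at least 2-fold higher in PWK-Xi, where 10.1% of all 5241 such genes were. Another 6 (Col1a2, Col3a1, Col6a1, Col6a2, Col6a3 and Col8a1) were at least 2-fold lower, where 8.93% of all were. Col1a1, Col4a1 and Col4a2 lay within 2-fold. Without centring 2 collagens were higher and 5 lower, against 14.1% and 5.95% of all genes, and scaled to equal summed FPKM the same 2 and 5, against 21% and 5.29%. The median of the 11 was -1.14, against 0 for all genes by construction. Col3a1, Col6a2, Col6a3 and Col8a1 met the minimum through B6-Xi alone and so could only be lower, and these counts are a description of the genes that passed and not of the family.

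Among the fibrillar collagens, the type I chains were the most abundant in B6-Xi. Col1a2, the gene of the second type I chain, had 69.3 FPKM from B6 and 65.0 from PWK in the B6-Xi line, and 40.7 and 28.5 in PWK-Xi. Its totals of 134.3 and 69.2 FPKM ranked 274 and 530 among all genes of the respective line. The total was 1.94-fold lower in PWK-Xi, a log2 difference of -1.14 relative to the median gene. Without that centring it was -0.95, and scaled to equal summed FPKM -0.80, so its place past 2-fold rests on the centring. Col1a1, the gene of the first type I chain, had totals of 54.6 and 35.5 FPKM, 1.54-fold lower in PWK-Xi. Both alleles of both genes were lower there, Col1a2 by 1.71-fold from B6 and 2.28-fold from PWK, and Col1a1 by 1.41-fold and 1.73-fold.

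The deposited FPKM of Col1a2 was 2.46 times that of Col1a1 in the B6-Xi line and 1.95 times in PWK-Xi. Col3a1, whose product forms type III fibrils alongside type I, had 6.04 FPKM in the B6-Xi line and 2.21 FPKM in PWK-Xi. This was 2.73-fold lower in PWK-Xi (log2 difference -1.33), with the PWK allele 4.06-fold and the B6 allele 1.52-fold lower.

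Col5a2 went the other way. It encodes a chain of type V, a minor component of type I fibrils that governs their assembly. It had 11.1 FPKM from B6 and 9.80 from PWK in the B6-Xi line, and 44.7 and 22.1 in PWK-Xi. Its total of 66.8 FPKM in PWK-Xi was 3.19-fold that of 20.9 FPKM in B6-Xi (log2 difference 1.44), and 0.97 times the level of Col1a2 in that line, against 0.16 times in B6-Xi. Col5a1, which encodes the partner chain, had 3.18 and 2.91 FPKM, so the FPKM ratio of Col5a2 to Col5a1 was 6.58 in the B6-Xi line and 23.0 in PWK-Xi.

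Col3a1 and Col5a2 are adjacent on chromosome 1, with no other listed gene between their starts, and they differed in opposite directions. The 20 nearest genes around both (10 on each side, at least 1 FPKM in both lines, collagens left out) had a median log2 difference of 0.64, in the direction of Col5a2. The median of their B6 shares was 54.1% in the B6-Xi line and 67.1% in PWK-Xi. All genes of chromosome 1 with at least 1 FPKM in both lines had medians of 51.4% and 70.2%. The part of this neighbourhood in the difference of Col5a2 was not tested.

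Col11a1, which encodes a chain of the cartilage-type fibril collagen XI, had 1.77 and 1.19 FPKM. Col24a1 had 7.54 FPKM in PWK-Xi, 38.4% from B6, but a listed 0 in B6-Xi. No fold is given for it, and of all genes that reached 5 FPKM in PWK-Xi, 4.76% likewise had a listed 0 in B6-Xi. Col5a3, Col11a2 and Col27a1 stayed under 0.2 FPKM in either line.

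Basement membrane collagens lay close in the lines for the major pair. Col4a1 and Col4a2 encode the chains of the common type IV network and are transcribed in opposite directions from adjoining starts. Col4a1 had 3.04 FPKM from B6 and 4.83 from PWK in the B6-Xi line, and 2.05 and 3.60 in PWK-Xi. Col4a2 had 2.11 and 5.33 in the B6-Xi line, and 2.29 and 4.50 in PWK-Xi. The totals were 7.88 and 5.65 FPKM for Col4a1 and 7.44 and 6.79 FPKM for Col4a2, both within 2-fold between the lines. The FPKM ratio of Col4a2 to Col4a1 was 0.94 in the B6-Xi line and 1.20 in PWK-Xi.

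The X-linked pair Col4a5 and Col4a6, which encode chains of other type IV networks, had values above 0 from the active X copy only. Col4a5 had 4.20 FPKM in B6-Xi, entirely from the PWK allele, and 1.58 FPKM in PWK-Xi, entirely from B6. Col4a6 had 0.847 FPKM in B6-Xi, also PWK only, and 0.0118 FPKM in PWK-Xi, B6 only. The inactive copy of either gene was thus listed at 0 in both lines. Col4a3 and Col4a4, on chromosome 1, had 0.0682 and 0.0394 FPKM in PWK-Xi and a listed 0 in B6-Xi.

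The FACIT difference came from a single gene, Col12a1, whose product lies along type I fibrils. It had 3.94 FPKM from B6 and 5.02 from PWK in the B6-Xi line, and 32.1 and 31.1 in PWK-Xi. Its total was 7.06-fold higher in PWK-Xi, at 63.3 against 8.96 FPKM, with a log2 difference of 2.50, and both alleles shared in it (8.16-fold for B6 and 6.21-fold for PWK). The genes around it on chromosome 9 had a median log2 difference of -0.11 and median B6 shares of 47.7% in the B6-Xi line and 49.4% in PWK-Xi. Relative to Col1a2, the FPKM of Col12a1 was 0.067 in the B6-Xi line and 0.91 in PWK-Xi. Col16a1, another FACIT gene, had 4.06 and 2.68 FPKM. Col14a1, Col9a2, Col9a3 and Col19a1 stayed under 0.3 FPKM in either line.

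The 3 type VI genes that passed the filter were lower in PWK-Xi. Col6a2 and Col6a3 met the minimum of 5 FPKM through B6-Xi alone and so could only be lower. Products of the 3 genes combine into a single heterotrimer, and bases upstream of the 3 starts are shown as a description. The sequences are RefSeq promoter windows of GRCm38.p6, reverse strand, read 5′ to 3′ towards the gene, without bases that GENCODE places in an exon. Capitals mark matches to the motifs searched.
Col6a1, chr10:76726169-76726294: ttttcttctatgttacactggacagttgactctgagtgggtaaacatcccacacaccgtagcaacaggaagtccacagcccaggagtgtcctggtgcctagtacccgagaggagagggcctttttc
Col6a2, chr10:76623631-76623880: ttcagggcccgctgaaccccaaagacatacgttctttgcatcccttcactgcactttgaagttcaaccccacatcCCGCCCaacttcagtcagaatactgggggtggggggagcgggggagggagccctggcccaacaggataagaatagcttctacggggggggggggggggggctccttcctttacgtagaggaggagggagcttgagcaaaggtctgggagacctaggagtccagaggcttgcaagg
Col6a3, chr1:90843972-90844221: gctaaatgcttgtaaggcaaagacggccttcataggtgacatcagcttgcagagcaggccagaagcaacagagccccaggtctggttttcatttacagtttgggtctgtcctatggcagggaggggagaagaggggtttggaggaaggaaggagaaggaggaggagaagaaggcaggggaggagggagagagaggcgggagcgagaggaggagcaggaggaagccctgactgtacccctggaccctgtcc

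Searched on both strands in the full 250 bases before each start were the TATA box as TATAAA, the CCAAT box by its own letters, the GC box as GGGCGG, and the AP-1 motif as TGANTCA. No match overlapped another in these windows. Col6a2 held GGGCGG once, on the opposite strand, a motif present in 32.7% of 32851 promoter windows of that length. Col6a1 held TGANTCA once, 84 to 90 bases before the RefSeq start and inside the part not shown, and 6.75% of all windows held it. No match to the 4 motifs was found in the Col6a3 window, and the 3 windows shared none. Col6a2 has a second RefSeq start, whose window is not shown and held 3 matches to GGGCGG, against 1 in the window shown.

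Col6a1 had 16.0 FPKM from B6 and 8.95 from PWK in the B6-Xi line, and 2.37 and 3.04 in PWK-Xi. Its total was 4.61-fold lower in PWK-Xi, at 5.41 against 25.0 FPKM (log2 difference -2.21). Col6a2, its neighbour on chromosome 10, had 3.65 and 5.68 FPKM in the B6-Xi line and 0.757 and 0.865 in PWK-Xi. It was 5.76-fold lower in total, at 1.62 against 9.33 FPKM (log2 difference -2.17). The genes around this pair had a median log2 difference of 0.14, opposite in sign to the pair.

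Col6a3 encodes the largest of the 3 chains and lies on chromosome 1. It had 8.42 FPKM from B6 and 3.26 from PWK in B6-Xi, but 0.0617 and 0.0386 in PWK-Xi. Its total was 116.4-fold lower, at 0.100 against 11.7 FPKM, and its log2 difference of -3.72 was the lowest of the 11 collagens. With no pseudocount this difference was -7.07. The PWK-Xi total ranked 11742 in a line with 12907 genes above 0. It lies near the floor, so the sizes of the fold and of ratios to Col6a3 are uncertain. Like Col6a2, Col6a3 met the minimum through B6-Xi alone and so could only be lower. The genes around Col6a3 had a median log2 difference of 0.10, with median B6 shares of 49.5% in the B6-Xi line and 70.3% in PWK-Xi. Both alleles of all 3 genes were lower in PWK-Xi. The FPKM ratio of Col6a1 to Col6a2 was 2.67 in the B6-Xi line and 3.34 in PWK-Xi, while that of Col6a1 to Col6a3 was 2.14 and 54.0. Sox9, the cartilage regulator listed among the markers above, was also lower in PWK-Xi, and its part in these differences was not tested. Of the other type VI genes, Col6a4 had 0.0968 FPKM in the B6-Xi line and was listed at 0 in PWK-Xi.

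Of the other collagens, Col8a1, the gene of a short-chain network collagen of vessels and cornea, had 8.91 FPKM in the B6-Xi line and 1.93 FPKM in PWK-Xi. This was 4.61-fold lower (log2 difference -1.95), whereas the genes around it on chromosome 16 had a median of 0.40. Col7a1, the anchoring fibril gene of skin, had 2.61 and 0.882 FPKM, and Col18a1, whose product carries the endostatin fragment, had 1.96 and 0.875 FPKM. Col23a1, a transmembrane collagen gene, had 0.417 and 1.36 FPKM. Col25a1, another transmembrane collagen gene, had 4.44 FPKM in PWK-Xi, 27.7% from B6, and a listed 0 in B6-Xi. Col24a1 and Col25a1 both lie on chromosome 3, where the B6 shares of the genes around them had medians of 75.2% and 73.7% in B6-Xi, against 54.3% and 55.1% in PWK-Xi.

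The allelic shares of the collagens were read for the 13 autosomal members whose totals reached 1 FPKM in each line. The median of their B6 shares was 51.6% in B6-Xi, with a range from 28.3% to 71.1%, and 52.5% in PWK-Xi, with a range from 33.7% to 68.5%. All 7441 autosomal genes read the same way had medians of 50.0% and 52.7%. Between 40% and 60% lay 6 of the 13 in the B6-Xi line and 8 in PWK-Xi. No count over all autosomal genes is given for this band, so these counts do not set the collagens apart. Only Col16a1 in B6-Xi, at 70.0%, had a share within 0.001 percentage points of a simple ratio (denominators up to 10). Larger denominators were not searched, so the other shares are not shown to rest on more reads. No such count over all genes is given. The number of reads behind each share is unknown, and other shares may also rest on few reads.

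Shares differed by at least 20 points between the lines for 3 of the 13, against 34.6% of all autosomal genes. Col16a1 had 70.0% in the B6-Xi line and 41.0% in PWK-Xi. For Col3a1 the shares were 29.3% and 52.5%, and for Col6a1 64.2% and 43.8%. Measured against the median share of the chromosome in each line, the genes past 20 points were Col16a1 and Col6a2, against 28.4% of all. With a minimum of 5 FPKM in both lines Col6a1 was left, 1 of 7 collagens, against 26.8% of 3830 autosomal genes.

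Some collagens kept the same lean in both lines against the genes around them, a comparison chosen after the shares were seen. The number of reads behind these shares is unknown, so a lean may rest on few reads. In both lines at least 10 points below their neighbours were Col3a1, Col4a1, Col4a2 and Col6a2, that is 4 of 13, against 6.53% of all autosomal genes. Col4a1 had a B6 share of 38.6% in the B6-Xi line and 36.3% in PWK-Xi, and Col4a2 had 28.3% and 33.7%, while the genes around the pair had medians of 53.5% and 51.0%. The pair shares its start region, so its genes are not independent examples. Col3a1 had 29.3% and 52.5%, with neighbours at 54.1% and 67.1%. Col6a2 had shares of 39.1% and 46.7%, with neighbours at 64.9% and 57.2%. Its partner Col6a1 was at 64.2% in B6-Xi, close to its neighbours, and at 43.8% in PWK-Xi.

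In both lines at least 10 points above their neighbours were Col5a1 and Col8a1, 2 of 13 against 7.81% of all autosomal genes. Col5a1 had B6 shares of 71.1% and 68.5%, with neighbours at 58.9% and 53.4%. Col8a1 had 40.6% and 58.2%, with neighbours at 29.4% and 39.9% on chromosome 16, which leaned to PWK in both lines. Relative to chromosome medians in place of neighbours, 3 of 13 genes were below and 1 was above, against 6.3% and 7.67% of all autosomal genes. The genes that dropped out were Col6a2, with a chromosome median of 53.5% in PWK-Xi, and Col8a1, with 33.3% in B6-Xi. Their leans thus depend on the reference used. Col5a2, by contrast, followed the genes around it, at 53.1% against 54.1% in the B6-Xi line and 66.9% against 67.1% in PWK-Xi. Col12a1 (44.0% and 50.8%), Col11a1 (51.9% and 53.3%) and Col1a2 (51.6% and 58.8%) stayed within 6 points of their neighbours in either line, and Col1a1 (55.5% and 60.4%) was 13.7 and 7.71 points above. The step that assigns reads to a strain is not described, and a preference of that step for 1 strain at a gene cannot be told apart from a difference between the alleles.

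**Figure D3:**
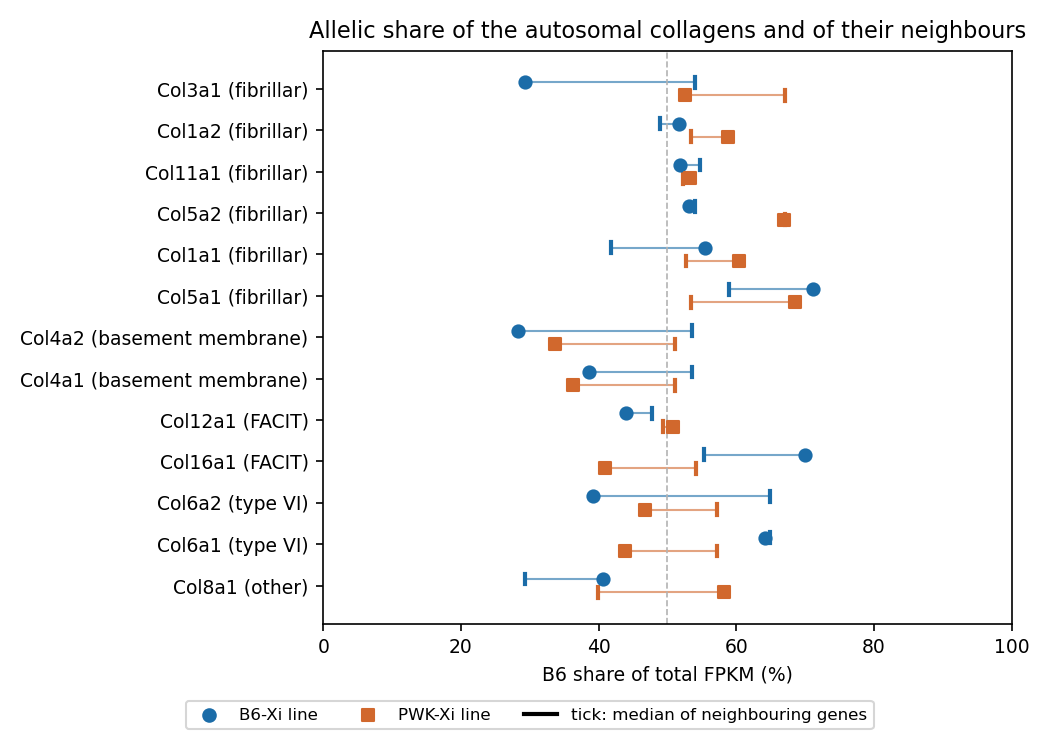
B6 share of the total FPKM (percent) of 13 autosomal collagen genes, with circles for the B6-Xi library and squares for the PWK-Xi library; the tick joined to each symbol is the median share of the 20 neighbouring genes in the same line. Col4a1 and Col4a2 lie to the left of their ticks in both lines, Col5a1 to the right, and Col5a2 on its ticks.

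The machinery that folds, trims, binds and degrades collagen was read from 4 gene lists. Of all 5241 genes that passed the filter, 10.1% were at least 2-fold higher in PWK-Xi and 8.93% at least 2-fold lower. The counts in each list are to be read beside these shares. Of 18 listed genes for folding and modification in the endoplasmic reticulum, 14 passed the filter. Of these P4ha1, a catalytic subunit gene of prolyl 4-hydroxylase, was past 2-fold higher in PWK-Xi (7.32 and 18.3 FPKM, log2 difference 1.02), and none was past 2-fold lower. The most abundant were P4hb, the gene of the other hydroxylase subunit and a disulfide isomerase (315.3 and 184.3 FPKM, log2 difference -0.97), the prolyl isomerase gene Ppib (300.1 and 281.9 FPKM), and Serpinh1, the collagen chaperone Hsp47 (78.6 and 47.5 FPKM, log2 difference -0.91). The median of the 14 was -0.42.

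Of 14 genes for procollagen processing and cross-linking, 6 passed and none was past 2-fold in either direction, with a median of 0.29. The most abundant was Pcolce, an enhancer of C-propeptide removal, with 153.9 FPKM in the B6-Xi line and 270.8 FPKM in PWK-Xi. The cross-linking oxidase genes Loxl1 and Lox had 24.7 and 42.3 FPKM and 26.6 and 31.1 FPKM. Of 10 collagen receptor genes, 3 passed and none was past 2-fold. The integrin subunit gene Itgb1 had 45.5 and 47.6 FPKM, the collagen receptor kinase gene Ddr2 had 27.7 and 44.95 FPKM, and Mrc2, an endocytic collagen receptor gene, had 11.8 and 10.8 FPKM.

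Among 8 genes for collagen degradation 5 passed, and 1 was past 2-fold in each direction, against 10.1% higher and 8.93% lower of all genes. The collagenase gene Mmp13 had 0.697 FPKM in the B6-Xi line and 19.0 FPKM in PWK-Xi (log2 difference 3.36). The gelatinase gene Mmp9 had 6.57 and 0.470 FPKM (log2 difference -2.56). Mmp13 met the minimum of 5 FPKM through PWK-Xi alone and so could only be higher there. Mmp9 met it through B6-Xi alone and so could only be lower in PWK-Xi. The most abundant were Mmp14, a membrane-bound metalloproteinase gene (54.2 and 51.0 FPKM), the cathepsin gene Ctsk (28.0 and 64.4 FPKM, log2 difference 0.98) and Mmp2, another gelatinase gene (21.6 and 27.8 FPKM).

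**Figure D4:**
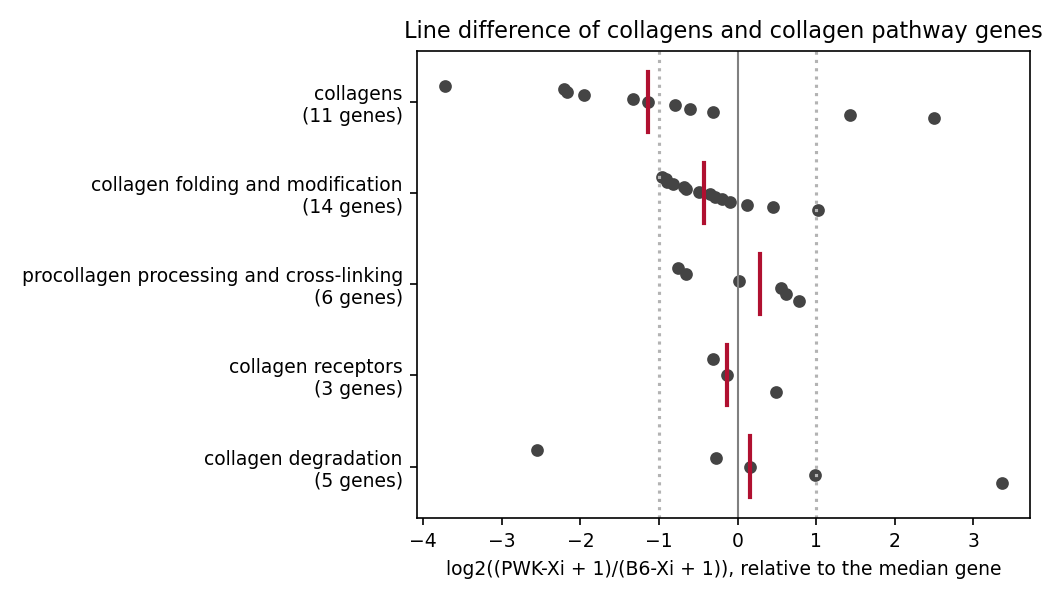
log2((PWK-Xi + 1)/(B6-Xi + 1)) relative to the median gene (horizontal axis) for the collagens and 4 lists of collagen pathway genes that passed the filter; each point is a gene, red bars are medians and dotted lines mark 2-fold. The collagens run from -3.72 (Col6a3) to 2.50 (Col12a1), and the folding genes from -0.97 (P4hb) to 1.02 (P4ha1).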

How the data were processed

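Per the labels' protocols, polyadenylated RNA of cultured fibroblasts was captured with oligo-dT and sequenced after Smart-seq2. Tools listed in the submitters' processing notes are HISAT2 2.2.0, Trim Galore 0.6.4 and StringTie 2.1.1, with mm9 as the build. The authors deposited FPKM values for the B6 and the PWK allele of each gene, while the assignment of reads to alleles is not described in the sources used here. FPKM are not counts, so depth is unknown and no counting interval is given.

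Totals, shares and differences were computed with Python 3.11.15, numpy 2.4.6 and pandas 2.3.3 and plotted with matplotlib 3.10.9, and the calculation was tested on simulated data. A pseudocount of 1 FPKM was added before log2, which understates differences of low genes. Groups came from the sample titles. With 1 library per line no test was made. Chromosomes and gene order came from GENCODE M21 and RefSeq annotation of GRCm38 by symbol (83 genes unmatched), with no mm9 coordinates. Promoter windows of 35 of the 44 collagens were in the RefSeq table.

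The members and lists were chosen with earlier results of these data known. Named were all collagens with at least 1 FPKM in a line, and of each other list the 3 most abundant genes and those past 2-fold. Alternatives covered pseudocounts, minimum values, centring, scaling, genes at 0 and skewed chromosome parts.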

Additional observations from a re-analysis of the deposited data

How the results depend on the processing

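No paired analysis was possible because each line has a single library. The 2 collagens past 2-fold higher became 3 of 12 tested with genes listed at 0 included (14% of all genes) and 1 of 5 tested (8.43% of all genes) without chromosome parts skewed in share (neighbouring genes over 10 points away from the median of all autosomal genes in a line). The 6 of 11 past 2-fold lower became 8 of 18 at a minimum of 1 FPKM (7.44% of all genes) and 8 of 21 with no minimum (5.94%). They were 5 of 11 without centring (5.95%) and scaled to equal sums (5.29%), and 6 of 12 with genes at 0 included (8.67%). With the other pseudocounts they stayed 6 of 11 (10.2% and 10.4%). Without the skewed parts they were 0 of 5 (7.51% of all genes). Those parts hold 6 of the 11 genes (Col3a1, Col5a2, Col6a1, Col6a2, Col6a3 and Col8a1). Col1a2, the remaining lower gene, was no longer past 2-fold there. The median log2 difference was -1.16 with a pseudocount of 0.1, -1.17 with none, -0.80 at a minimum of 1 FPKM, -0.73 with no minimum, -0.95 without centring, -0.80 scaled to equal sums, -0.97 with genes at 0 and -0.46 without the skewed parts. Col1a2 fell under 2-fold without centring and on scaling to equal sums. Without the 10 most abundant genes, collagens held 0.135% of the FPKM in the B6-Xi line and 0.124% in PWK-Xi. The median B6 share in B6-Xi was 47.8% with the minimum in that line alone and 51.7% without skewed parts. In PWK-Xi it was 50.8% at 5 FPKM, 48.7% with the minimum in that line alone, 57.5% when pooled over FPKM and 52.1% without skewed parts. At 5 FPKM, 1 of 7 collagens differed by 20 points in share, against 26.8% of all genes. The cause of these shifts was not tested beyond the genes each alternative removes.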
